A study of Mus musculus with 28 samples.

Results

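Collagen genes were taken from the deposited expression table of mouse back skin as the rows whose symbol consists of Col, a type number, the letter a and a chain number. The rule found 44 of 23015 rows. By the structure of their proteins they comprised 11 fibrillar chains, 6 chains of type IV, 2 multiplexins of basement membranes (types XV and XVIII), 9 fibril-associated chains (FACIT), 1 chain of anchoring fibrils (type VII), 4 transmembrane collagens, 6 chains of type VI (beaded filaments), 3 chains of types VIII and X (hexagonal networks) and 2 others.

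Collagens are matrix proteins whose chains wind around one another into a rigid helix, are trimmed outside the cell and are then crosslinked. In skin, types I, III and V make the fibrils that give the dermis its strength, FACIT collagens sit on the surface of those fibrils, and type VI forms fine filaments around cells. Type IV builds the sheet of the basement membrane that lies under the epidermis and around hair follicles and vessels. Type XVII spans the membrane of basal keratinocytes and type VII loops from the basement membrane into the dermis, and together they fasten epithelium to dermis.

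RNA was measured by sequencing in 14 populations sorted by flow cytometry from back skin at postnatal day 5, with 2 libraries each and 28 in all. All mice had a mixed background of FVB/N, C57BI/6J and CD1. The labels give Lef1-RFP as the genotype of every population except the 2 of the Sox9-GFP line. Skin of K14-H2BGFP mice, in which the keratin 14 promoter marks the nuclei of keratinocytes, gave 8 populations. Epi was positive for the reporter and came from the epidermal preparation, and the other 7 came from the dermal preparation: ORS (outer root sheath, bright), Mx (matrix progenitors, dim), TAC (Shh-expressing matrix progenitors, dim and Lef1-RFP+), Mc (melanocytes, Lef1-RFP+ and CD117+), DF (dermal fibroblasts, Lef1-RFP+, CD117- and ITGA9-), DP (dermal papilla, Lef1-RFP+ and ITGA9 high) and Neg, a mixture of negative cells. Sox2-GFP mice gave ZZ-DP (zigzag papilla, GFP-) and, as its GFP+ counterpart, G/AA-DP (papilla of guard and of awl/auchene hairs). Crabp1-GFP mice gave G-DP (guard papilla, GFP-) and AA/ZZ-DP (GFP+), and these 4 papilla subtypes were also Lef1-RFP+ and ITGA9 high. Mice with K14-RFP and Sox9-GFP gave HF-SC (precursors of bulge stem cells, Sox9-GFP+) and HF-ORS (Sox9-GFP-), both bright for K14-RFP and integrin alpha 6. The sources used here do not give the number of animals behind a library or say that replicates came from separate animals, so p-values measure only the spread between these samples, which may be technical.

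Values are FPKM, read fragments relative to transcript length and library size, so levels of genes of different length can be set side by side. FPKM sums ran from 285980.6 to 515224 per library, the sequencing depth is unknown, and no counting interval is given. Malat1, which nearly all cells transcribe, stood at exactly 0 in 10 libraries, so a collagen gene at 0 is described as listed at 0. Across genes, the 2 libraries of a population correlated least in G-DP (0.884) and most in ORS (0.966). Defining markers of the labelled types were present, with Krt5 at 15798 and 9569 FPKM in Epi and Corin at 372 and 472 in DP. The sort labelled DF also held RNA of other types: 9 melanocyte markers summed to 1409 and 1416 FPKM in DF against 25.9 and 31.6 in DP, 9 smooth muscle and pericyte markers to 686 and 664 against 47.2 and 55.6, and 10 keratinocyte markers to 981 and 288 against 78.6 and 114. In sorted bulk samples, fewer cells of a type and less RNA per cell cannot be told apart.

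The collagen transcriptome was largest in the dermal sorts and changed its makeup from one compartment to the next. The 44 genes together made up 0.894% and 1.75% of all FPKM in DF, 0.761% to 1.29% in DP, and 0.516% to 1.09% in the 8 papilla subtype libraries. Among epithelial sorts the share was 0.255% to 0.321% in HF-ORS, 0.243% to 0.272% in HF-SC, 0.147% to 0.179% in Epi, 0.123% to 0.125% in ORS, 0.0626% to 0.0738% in TAC and 0.0200% to 0.0270% in Mx. Mc had the lowest, at 0.0168% to 0.0192%, and Neg lay at 0.165% to 0.167%. No library of an epithelial sort, Mc or Neg reached the lowest library of the dermal fibroblast and papilla sorts.

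**Figure D1:**
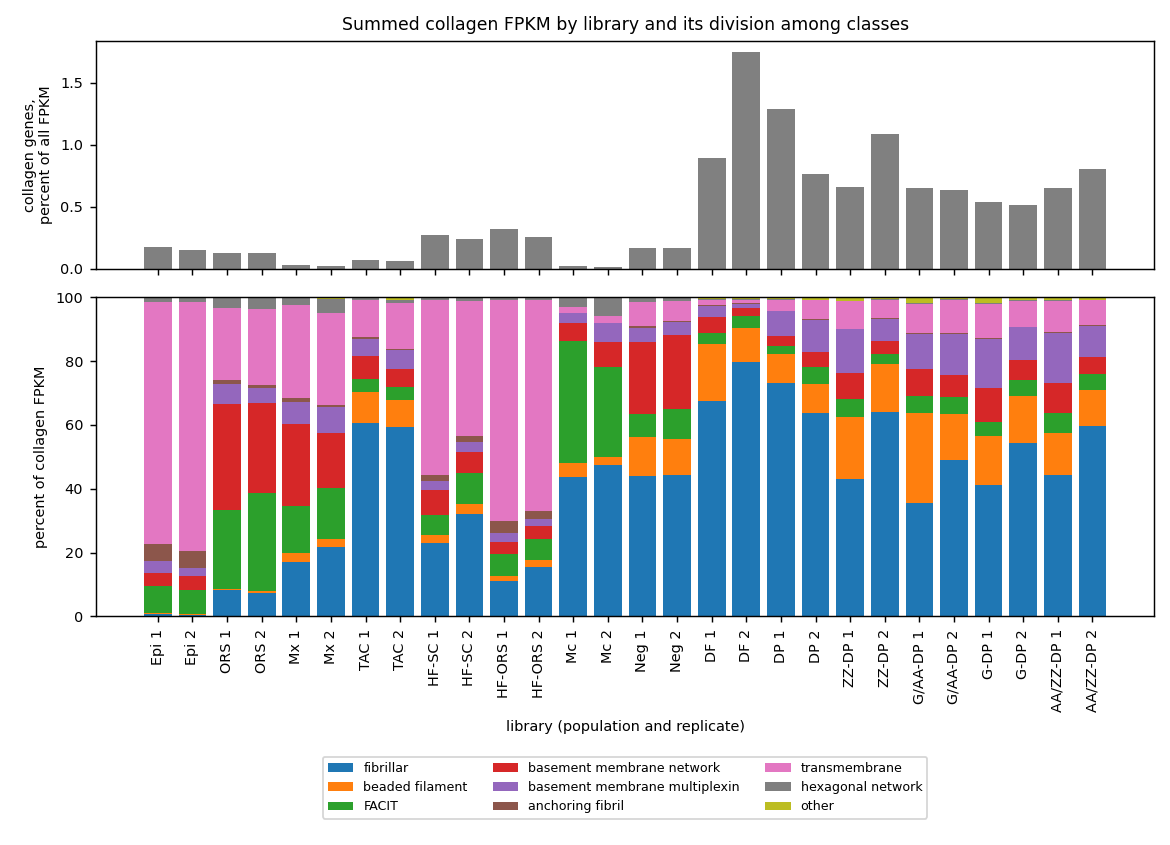
Upper panel, the summed FPKM of 44 collagen genes as a percentage of all FPKM in each of the 28 libraries, and lower panel, the division of that sum among 9 classes in percent. Fibrillar chains take 67.6% to 79.6% of collagen FPKM in DF, transmembrane collagens 75.9% to 77.9% in Epi, and type IV chains 28.2% to 33.2% in ORS.

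Fibrillar chains made up 67.6% to 79.6% of collagen FPKM in DF and 63.7% to 73.1% in DP, but 0.542% to 0.670% in Epi. There, transmembrane collagens, nearly all of it Col17a1, took 75.9% to 77.9%. In ORS the fibrillar share (7.48% to 8.18%) and the transmembrane share (22.6% to 23.8%) lay between those of the dermal sorts and Epi. Its type IV share (28.2% to 33.2%) and FACIT share (24.8% to 30.9%) were above those of DF, DP and Epi. In HF-ORS the transmembrane share was 66.0% to 69.1%, and in HF-SC 42.5% to 54.7%. In TAC the fibrillar share was 59.4% to 60.7%, against 17.0% to 21.6% in Mx. Multiplexins, mainly Col15a1, were 7.12% to 15.8% of collagen FPKM in the 10 papilla libraries and 1.34% to 3.28% in DF.

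**Figure D2:**
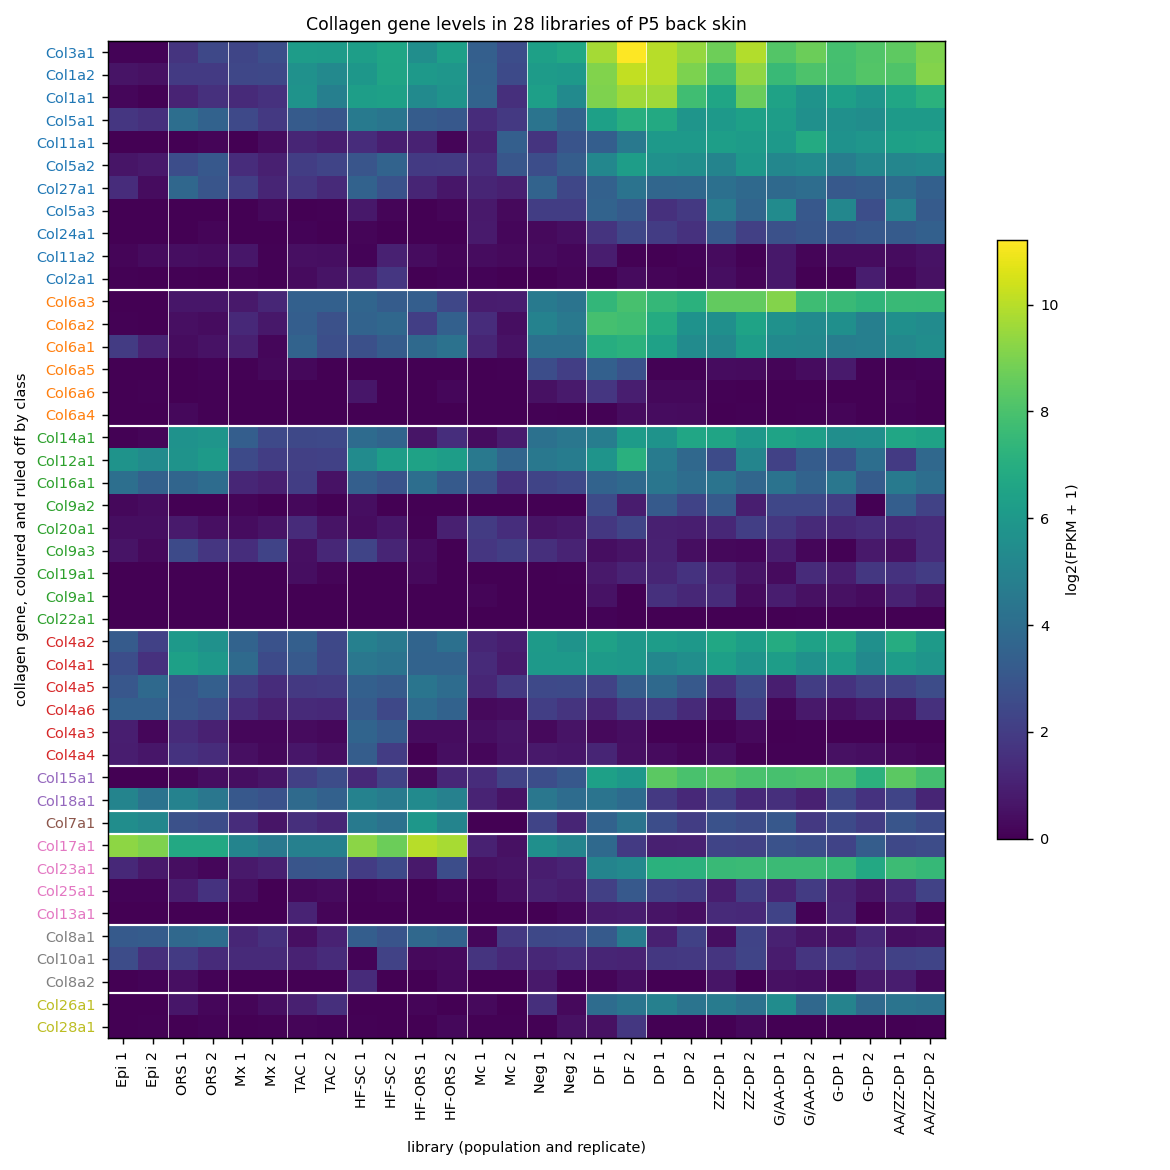
Level of each of the 44 collagen genes, as log2(FPKM + 1), in the 28 libraries, with genes ordered by class and populations ruled off. The fibrillar and type VI rows are bright in the dermal sorts on the right, Col17a1 is bright in the epithelial sorts on the left, and Col4a3 and Col4a4 stand out in HF-SC.

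Differences were tested with limma on log2(FPKM + 1), with p-values adjusted by the Benjamini-Hochberg method over 15052 genes, and calls needed both an adjusted p below 0.05 and a log2 difference of 1 or more. Differences are given ± SE. Only genes at 1 FPKM or more in at least 2 libraries were tested, which 37 of the 44 collagen genes were. A gene could pass through the population where it is high, so counts of calls describe these genes and are no evidence on the family. The other 7 were Col2a1, Col11a2, Col22a1, Col6a4, Col6a6, Col8a2 and Col28a1. Col22a1 and Col6a4 never reached 1 FPKM, and the highest value of the other 5 was 2.49 FPKM (Col28a1, DF replicate 2).

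The first comparison set the 2 dermal sorts of the K14-H2BGFP line (DF and DP) against its 4 keratinocyte sorts (Epi, ORS, Mx and TAC), which asks how mesenchyme and epithelium divide the collagens. Of the 44 genes, 24 were called higher in DF and DP, where 14.5% of all genes tested were, and 2 were called lower, Col17a1 and Col18a1, where 11.5% of all genes were. A further 11 were tested and not called. The median log2 difference of the 37 tested was 1.89, and that of all genes tested was -0.05. The genes called higher comprised 9 fibrillar chains, 4 of type VI, 5 FACIT, 2 of type IV, 2 transmembrane, 1 multiplexin (Col15a1) and Col26a1. With each of the 12 libraries left out in turn, 24 of the 26 calls held. Col12a1 was not called without DP replicate 1 or DF replicate 2 (adjusted p up to 0.106 in limma), and Col19a1 had a log2 difference under 1 without DP replicate 2. All 10 keratinocyte markers were lower in DF and DP. Markers of some other dermal types moved with the collagens: 9 of 9 melanocyte, 6 of 9 smooth muscle and pericyte and 6 of 9 Schwann cell markers were also higher, with 1 Schwann marker lower. Others mostly did not, with 1 of 9 endothelial, 1 of 8 leukocyte and 0 of 3 erythroid markers higher. The part of these cells in the calls was not tested.

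**Figure D3:**
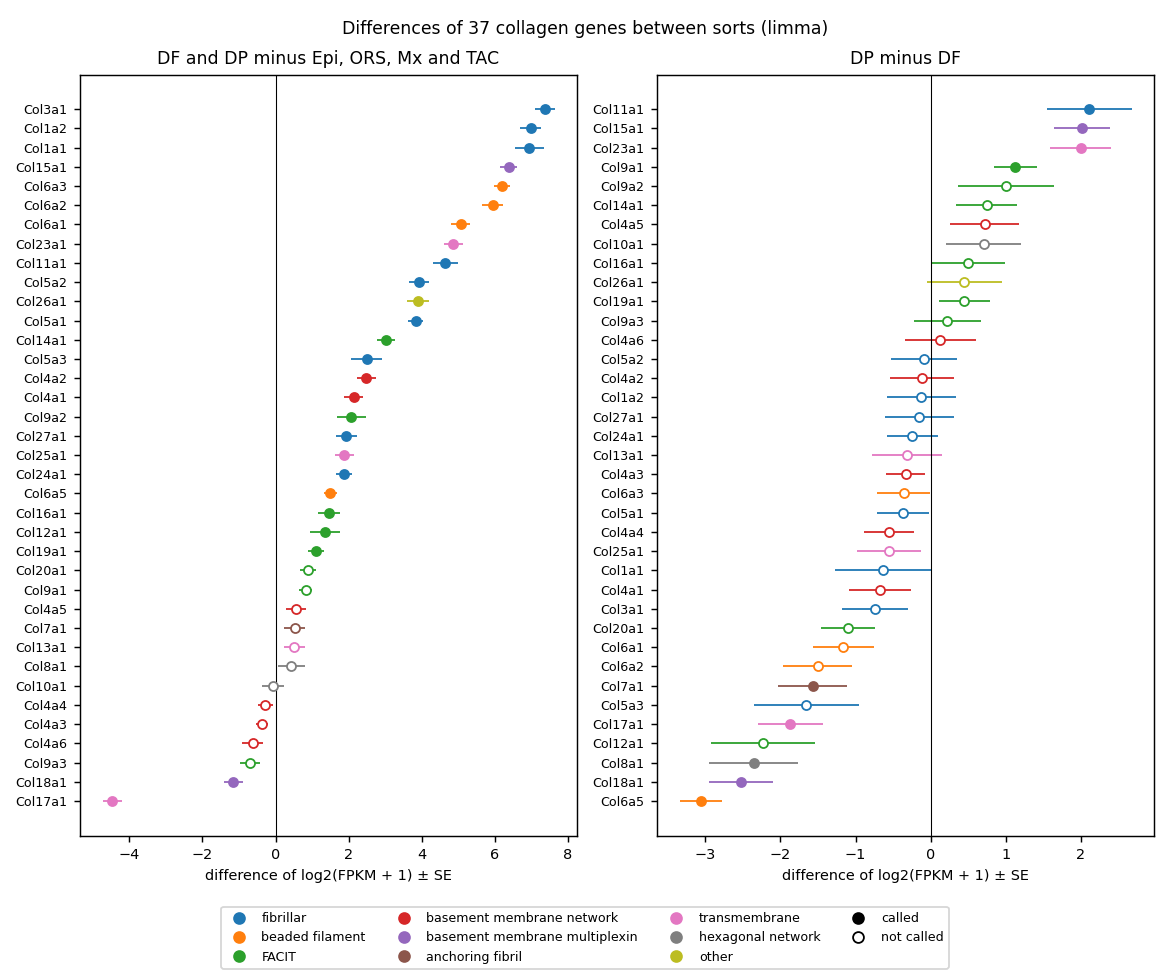
Difference of log2(FPKM + 1) ± SE from limma for the 37 collagen genes tested, left for DF and DP minus the 4 keratinocyte sorts and right for DP minus DF. Filled points were called and open points were not; Col3a1 lies at 7.37 and Col17a1 at -4.47 on the left, and Col11a1 at 2.11 and Col6a5 at -3.06 on the right.

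Upstream sequence is shown for called members of these 2 comparisons with large differences, among those with at least 150 bases outside annotated genes: Col3a1 and Col6a3 (higher in DF and DP), Col17a1 and Col18a1 (lower), Col11a1 (higher in DP than DF) and Col8a1 (lower in DP than DF, as was Col18a1). RefSeq gave a promoter entry for 35 of the 44 genes (38 windows, build GRCm38.p6), and the 250 bases before the annotated start were searched on both strands for TATAAA, the TATA box, for CCAAT, a motif bound by NF-Y, for CTTTGA, a core of LEF/TCF sites, and for GGGCGG, a core of Sp1 sites. Capitals mark matches to the first 3 (ATTGG is CCAAT on the other strand), and the lines run 5′ to 3′ on the gene's strand, without bases that RefSeq or GENCODE places within a transcript or gene.
Col3a1, chr1:45311288-45311537, plus strand: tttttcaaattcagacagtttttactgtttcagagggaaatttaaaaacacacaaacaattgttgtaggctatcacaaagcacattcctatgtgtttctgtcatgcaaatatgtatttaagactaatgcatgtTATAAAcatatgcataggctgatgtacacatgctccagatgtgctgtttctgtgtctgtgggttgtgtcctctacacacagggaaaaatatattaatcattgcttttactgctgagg
Col6a3, chr1:90844002-90844221, minus strand: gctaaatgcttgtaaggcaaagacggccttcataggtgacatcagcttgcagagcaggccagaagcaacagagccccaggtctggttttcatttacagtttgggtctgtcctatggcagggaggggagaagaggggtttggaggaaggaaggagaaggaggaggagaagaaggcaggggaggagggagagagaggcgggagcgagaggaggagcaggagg
Col17a1, chr19:47692095-47692292, minus strand: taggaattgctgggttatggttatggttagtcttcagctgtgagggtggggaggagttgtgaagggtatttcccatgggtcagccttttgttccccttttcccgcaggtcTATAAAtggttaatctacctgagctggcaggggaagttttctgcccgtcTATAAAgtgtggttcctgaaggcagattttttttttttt
Col18a1, chr10:77166549-77166780, minus strand: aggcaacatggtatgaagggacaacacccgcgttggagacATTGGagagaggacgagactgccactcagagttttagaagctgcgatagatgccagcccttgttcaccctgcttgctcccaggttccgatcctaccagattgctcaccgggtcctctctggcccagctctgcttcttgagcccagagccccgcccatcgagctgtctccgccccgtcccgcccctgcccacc
Col11a1, chr3:114030290-114030478, plus strand: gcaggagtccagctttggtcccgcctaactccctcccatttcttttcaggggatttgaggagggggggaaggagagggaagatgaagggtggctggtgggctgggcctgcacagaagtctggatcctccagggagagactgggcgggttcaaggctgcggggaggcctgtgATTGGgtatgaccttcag
Col8a1, chr16:57754738-57754987, minus strand: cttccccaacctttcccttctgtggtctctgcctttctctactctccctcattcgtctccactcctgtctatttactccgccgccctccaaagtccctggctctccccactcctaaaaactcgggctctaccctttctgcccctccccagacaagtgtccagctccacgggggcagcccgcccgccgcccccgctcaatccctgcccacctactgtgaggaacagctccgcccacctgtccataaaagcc

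Matches to TATAAA lay 117 bases before the annotated start of Col3a1 and 140 and 91 bases before that of Col17a1. Matches to CCAAT began 210 bases before the start shown for Col18a1 and 79 before that of Col11a1. The stretches of Col6a3 and Col8a1 held none of these 3 motifs. The full window of Col17a1 also held 1 CCAAT match, not within the stretch shown, and the other window of Col18a1 held 0. Over the 38 collagen windows, 5 held TATAAA, 13 CCAAT, 9 CTTTGA and 22 GGGCGG. Of 32851 windows of the same length in RefSeq, 12.37% held TATAAA, 33.85% CCAAT, 13.83% CTTTGA and 32.74% GGGCGG. The window of Col3a1 was 35.2% G and C with 0 CG pairs, and that of Col5a1, a partner in the same fibrils, was 76.4% with 28. A match is a string of letters and not a shown binding site.

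Among fibrillar chains, Col3a1 (type III, chr1:45311538-45349706 in the deposited table) and the 2 chains of type I, Col1a1 and Col1a2, had the highest levels. Col3a1 was at 832 and 2358 FPKM in DF and 1010.3 and 698 in DP. It ranged from 235 to 971 (median 379) FPKM in the 8 papilla subtype libraries. In the epithelial sorts it was at 0.0878 and 0.0845 in Epi, 2.21 and 4.30 in ORS, 4.06 and 5.54 in Mx, 72.1 and 70.4 in TAC, 75.8 and 95.6 in HF-SC and 45.9 and 78.8 in HF-ORS. The dermal libraries were all above the others, and within the epithelium Epi was lowest, while HF-ORS overlapped both TAC and HF-SC. The log2 difference of DF and DP from the 4 keratinocyte sorts was 7.37 ± 0.27 (limma, adjusted p = 4.58e-14).

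Col1a2 was at 538 and 1161 FPKM in DF, 1021 and 515 in DP and 0.522 and 0.398 in Epi, with a log2 difference between the dermal and keratinocyte sorts of 6.98 ± 0.28 (limma, adjusted p = 1.42e-13). Col1a1 was at 529 and 768 FPKM in DF, 781 and 217 in DP and 0.162 and 0.0336 in Epi, with a log2 difference of 6.95 ± 0.40 (adjusted p = 2.87e-11). Replicates of a dermal sort differed widely in these genes, as the 2 DP libraries did in Col1a1. In the other papilla sorts Col1a1 was at 86.7 and 53.7 in G/AA-DP, 78.6 and 57.7 in G-DP, 98.3 and 142 in AA/ZZ-DP and 94.1 and 402 in ZZ-DP, where only ZZ-DP replicate 2 exceeded the lower DP library. These sorts came from other mouse lines than DF and DP, and line and sort cannot be told apart there.

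**Figure D4:**
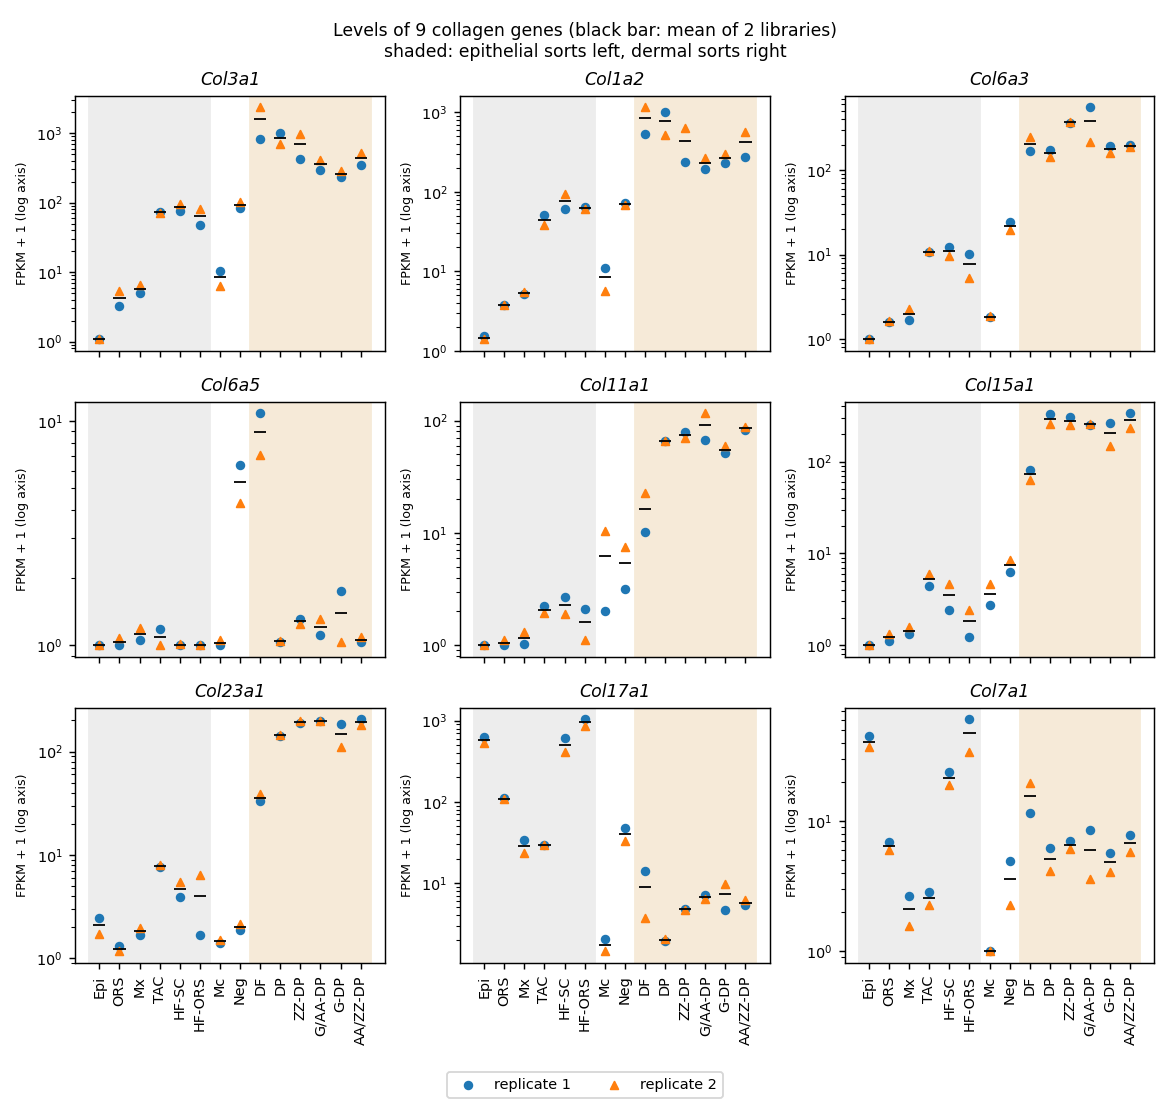
FPKM + 1 on a log axis for 9 collagen genes in the 14 populations, with circles for replicate 1, triangles for replicate 2 and a bar at their mean. Col3a1, Col1a2 and Col6a3 are highest in the dermal sorts, Col6a5 in DF, Col11a1, Col15a1 and Col23a1 in papilla sorts, and Col17a1 and Col7a1 in Epi and HF-ORS.

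Type V chains, which help set the diameter of type I fibrils, were lower. Col5a1 was at 82.4 and 129 FPKM in DF, 112 and 57.0 in DP and 2.39 and 1.97 in Epi (log2 difference of the dermal from the keratinocyte sorts 3.84 ± 0.21, limma, adjusted p = 1.51e-11), and Col5a2 at 34.9 and 74.6, 50.5 and 46.0 and 0.565 and 0.683 (3.93 ± 0.27, adjusted p = 3.87e-10). Col5a3, singled out after its values were seen, had a wide spread between replicates. It was at 24.5 and 11.7 FPKM in ZZ-DP, 41.2 and 7.41 in G/AA-DP, 35.4 and 5.50 in G-DP and 29.7 and 8.16 in AA/ZZ-DP. In each of these 4 papilla subtypes replicate 1 was the higher one, while DP lay at 1.97 and 2.59 and DF at 10.9 and 7.91. Col24a1 reached at most 9.91 FPKM, in AA/ZZ-DP replicate 2, and Col27a1, whose deposited locus also holds Mir455, at most 18.3, in DF replicate 2. Of the chains best known from cartilage, Col11a1 reached 115 FPKM in a papilla library, whereas Col2a1 reached 2.44 (HF-SC replicate 2) and Col11a2 1.05 (HF-SC replicate 2).

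Type VI chains were also higher in the dermal sorts, 4 of the 4 tested. Col6a3 was at 168 and 242 FPKM in DF and 174 and 142 in DP, and from 158 to 553 (median 204) in the 8 papilla subtype libraries. It was listed at 0 in Epi replicate 1 and was at 0.0171 in replicate 2, with 0.583 and 0.619 in ORS and 9.76 and 9.94 in TAC. All dermal libraries were above all others, and the log2 difference of DF and DP from the keratinocyte sorts was 6.21 ± 0.21 (limma, adjusted p = 3.27e-14). The difference was 5.94 ± 0.28 for Col6a2 (adjusted p = 1.72e-12), which was at 235 and 216 FPKM in DF and 119 and 51.7 in DP, and 5.06 ± 0.25 for Col6a1 (adjusted p = 3.18e-12), at 127 and 140.5 and 83.9 and 41.4. Col6a5 was nearly limited to DF, at 9.79 and 6.00 FPKM, and Neg, at 5.36 and 3.29, with at most 0.745 elsewhere. Its neighbours on chromosome 9, Col6a6 and Col6a4, reached 2.42 FPKM (DF replicate 1) and 0.292 FPKM (DF replicate 2).

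The type IV genes divided by the pairs in which they lie on the chromosome. Col4a1 and Col4a2, whose products form the common network of basement membranes, lie on chromosome 8 with 2 bases between their deposited loci. Col4a3 and Col4a4 lie on chromosome 1 with 71 bases between them, and Col4a6 and Col4a5 on chromosome X with 1342. In each pair the genes point away from each other.

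Col4a1 was at 81.4 and 61.6 FPKM in ORS, 66.7 and 64.8 in Neg, 67.3 and 62.0 in DF and 35.6 and 45.2 in DP, and from 39.1 to 78.5 (median 64.0) in the papilla subtypes. It was at 20.9 and 18.1 in HF-SC, 10.8 and 10.8 in HF-ORS, 13.8 and 4.67 in Mx, 7.76 and 4.25 in TAC, 5.26 and 2.03 in Epi and 1.50 and 0.746 in Mc. ORS replicate 1 was the highest of all 28 libraries and ORS replicate 2 lay among the dermal ones, while the other epithelial sorts lay below them and Mc was lowest. Col4a2 was highest in papilla subtypes, from 47.8 to 120.2 (median 92.5) FPKM, with 84.4 and 62.3 in DF, 73.1 and 61.1 in DP, 63.8 and 50.1 in ORS, 8.37 and 3.47 in Epi and 1.20 and 0.913 in Mc. For DF and DP against the keratinocyte sorts the log2 difference was 2.14 ± 0.25 for Col4a1 (limma, adjusted p = 9.24e-07) and 2.48 ± 0.26 for Col4a2 (adjusted p = 1.84e-07).

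Col4a3 and Col4a4, known from the kidney glomerulus and other special basement membranes, had their highest level in HF-SC. Col4a3 was at 11.1 and 8.11 FPKM there, at 1.57 and 1.03 in ORS, 0.901 and 0.162 in Epi and at most 0.498 in every other library. Col4a4 was at 8.80 and 3.02 FPKM in HF-SC, 2.10 and 1.70 in ORS and at most 1.20 elsewhere. Col4a5 and Col4a6 were highest in HF-ORS, at 19.4 and 14.5 and 14.1 and 10.5 FPKM. Col4a6 was next highest in Epi, at 9.88 and 9.75 FPKM, and Col4a5 in Epi replicate 2 (13.2) and DP replicate 1 (13.1), all below HF-ORS but close to its lower library. None of these 4 genes was called between the dermal and keratinocyte sorts.

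**Figure D5:**
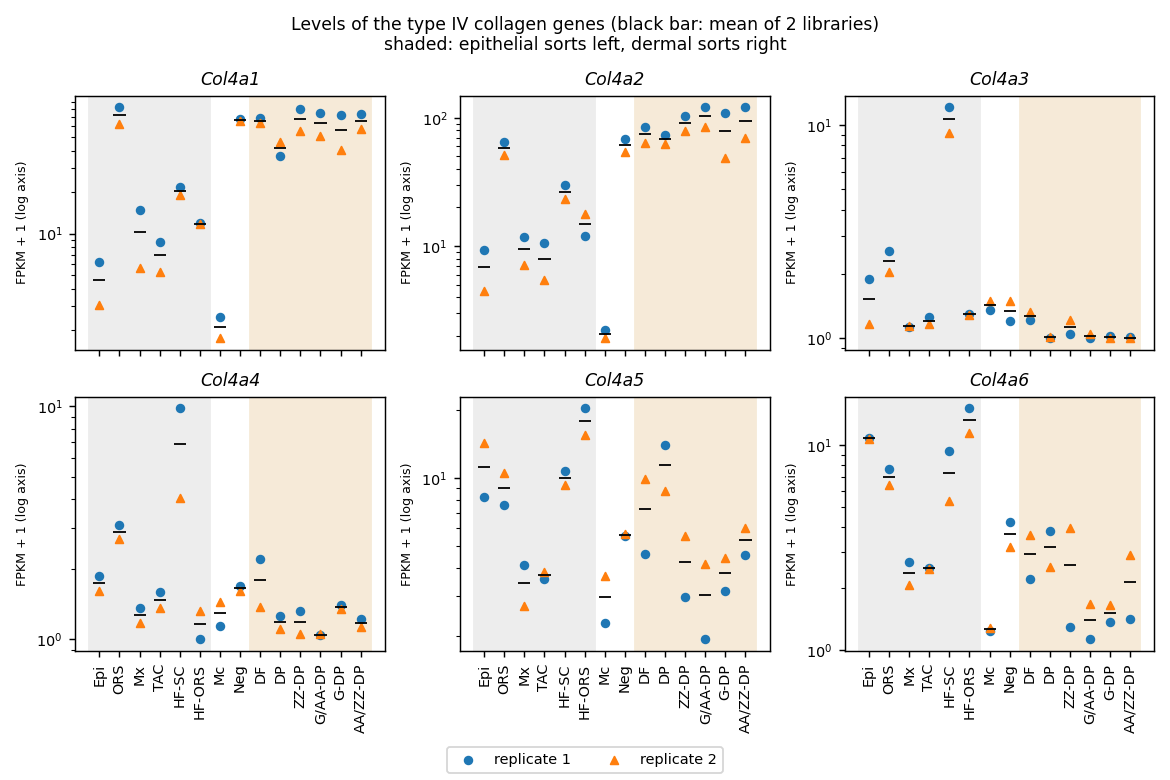
FPKM + 1 on a log axis for the 6 type IV collagen genes in the 14 populations, with circles for replicate 1, triangles for replicate 2 and a bar at their mean. Col4a1 is as high in ORS (81.4 and 61.6 FPKM) as in the dermal sorts, and Col4a3 is high in HF-SC (11.1 and 8.11 FPKM).

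The 2 multiplexins, which link basement membranes to the matrix below, went in opposite directions. Col15a1 was listed at 0 in both Epi libraries and was at 0.110 and 0.327 FPKM in ORS, 0.321 and 0.574 in Mx and 3.42 and 5.05 in TAC, against 80.8 and 62.4 in DF and 329 and 256 in DP. Col18a1, the source of endostatin, was at 31.9 and 18.5 FPKM in Epi, 30.4 and 20.8 in ORS, 40.7 and 29.6 in HF-ORS and 30.3 and 24.2 in HF-SC, against 18.6 and 14.1 in DF and 2.59 and 1.47 in DP. In Mx and TAC Col18a1 lay below both DF libraries. There the 2 multiplexins together summed to 7.81 and 6.56 FPKM in Mx and 17.1 and 15.2 in TAC. DP was thus high in the first gene and low in the second, while DF was above Mx and TAC in both. The log2 differences of DF and DP from the keratinocyte sorts were 6.38 ± 0.23 for Col15a1 (limma, adjusted p = 4.52e-14) and -1.16 ± 0.26 for Col18a1 (adjusted p = 0.00108).

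Of the FACIT genes, Col14a1, Col12a1 and Col16a1 had the highest mean levels. Col14a1 was at 51.5 and 55.8 FPKM in ORS, 25.7 and 70.4 in DF, 53.7 and 97.7 in DP and from 44.9 to 98.7 (median 81.2) in the papilla subtypes, but at 0.0418 and 0.0967 in Epi and 0.541 and 1.80 in HF-ORS. Col12a1 was at 54.7 and 136 FPKM in DF, 87.1 and 74.1 in HF-ORS, 52.3 and 68.5 in ORS and 53.5 and 40.8 in Epi, and it was low in Mx (4.66 and 3.09) and TAC (3.31 and 3.55). The 2 genes therefore met in ORS and DF. They parted in Epi, where only Col12a1 was present, and in HF-ORS, where Col12a1 was far higher. In the papilla subtypes they parted the other way, with Col12a1 from 2.72 to 33.7 (median 7.28) FPKM. Col16a1 lay between 0.469 and 23.5 FPKM, with its lowest values in Mx (1.33 and 0.954) and TAC (3.05 and 0.469).

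The type IX chains were low. Col9a1 was at 1.94 and 1.35 FPKM in DP and at most 1.57 elsewhere, and Col9a2 reached 9.19 in AA/ZZ-DP replicate 1. Col9a3 shares its deposited locus with Tcfl5, and its values, up to 4.70 FPKM in ORS replicate 1, are uncertain. Col19a1 and Col20a1 stayed below 4 FPKM, with maxima of 2.94 (AA/ZZ-DP replicate 2) and 3.91 (DF replicate 2).

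Col17a1 (type XVII, chr19:47646341-47692042), the collagen of hemidesmosomes, had the highest FPKM of all collagen genes in every epithelial sort except TAC, where Col3a1 had it. It was at 1035 and 863 FPKM in HF-ORS, 627 and 531 in Epi, 608 and 405 in HF-SC, 109 and 107 in ORS, 32.7 and 22.4 in Mx and 28.3 and 28.7 in TAC. It was at 13.2 and 2.76 FPKM in DF, 0.952 and 1.06 in DP and 1.05 and 0.439 in Mc. Epi and HF-SC overlapped, HF-ORS lay above them and Mx and TAC, which overlapped, lay below ORS. The log2 difference of DF and DP from the keratinocyte sorts was -4.47 ± 0.26 (limma, adjusted p = 4.46e-11).

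Col7a1 (chr9:108953745-108984875), the one anchoring fibril chain, was at 59.2 and 32.7 FPKM in HF-ORS, 43.6 and 35.7 in Epi, 22.7 and 17.9 in HF-SC and 5.90 and 5.00 in ORS, and at 10.5 and 18.6 in DF. Both Mc libraries were listed at 0. It was highest in HF-ORS, Epi and HF-SC, and DF lay above ORS, and the log2 difference of DF and DP from the 4 keratinocyte sorts was 0.52 ± 0.28 (limma, adjusted p = 0.14). The transmembrane Col23a1 went the other way from Col17a1, at 139.6 and 145 FPKM in DP, 31.9 and 37.8 in DF and 1.43 and 0.719 in Epi (4.87 ± 0.25, adjusted p = 5.4e-12). Col25a1 and Col13a1 were low, with maxima of 7.71 FPKM (DF replicate 2) and 3.71 FPKM (G/AA-DP replicate 1).

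Among the remaining genes, Col8a1, a network collagen, was at 7.93 and 24.7 FPKM in DF, 13.0 and 14.4 in ORS, 12.6 and 10.6 in HF-ORS and 7.99 and 8.62 in Epi, and at most 3.75 in every papilla library. Col10a1 shares its deposited locus with Nt5dc1, and its values, up to 5.07 FPKM, are uncertain. Col26a1 was at 14.5 and 19.6 FPKM in DF, 28.7 and 19.1 in DP and at most 1.88 in every epithelial library. Its log2 difference between the dermal and keratinocyte sorts was 3.89 ± 0.30 (limma, adjusted p = 2.68e-09).

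The second comparison asked which collagens separate the dermal papilla, the signalling cluster at the base of the follicle, from dermal fibroblasts. In DP against DF, 9 collagen genes were called (6.69% of all genes tested were), 4 of them higher (2.44% were) and 5 lower (4.25% were). The median log2 difference was -0.32 for the 37 collagens tested and 0.01 for all genes tested. The main fibril genes were not called: Col3a1 differed by -0.74 ± 0.44 (limma, adjusted p = 0.408), Col1a1 by -0.63 ± 0.65 (0.703) and Col1a2 by -0.12 ± 0.46 (0.948).

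Col15a1 was at 329 and 256 FPKM in DP and 80.8 and 62.4 in DF, a log2 difference of 2.02 ± 0.38 (limma, adjusted p = 0.00179). Col23a1, which can bind integrins, was at 139.6 and 145 and 31.9 and 37.8 FPKM (2.00 ± 0.41, adjusted p = 0.0033). Col11a1, which nucleates fibrils, was at 64.5 and 65.0 and 9.11 and 21.8 FPKM (2.11 ± 0.56, adjusted p = 0.0252). The libraries of DP and DF did not overlap in these 3 genes, nor in Col9a1 (1.13 ± 0.29, adjusted p = 0.0188), which was at 1.94 and 1.35 FPKM in DP and 0.448 and 0 in DF. These genes were picked because they were called, so this separation is no further evidence. In the other 8 papilla libraries Col15a1 was from 148 to 335 (median 254) FPKM, Col23a1 from 109 to 204 (median 193) and Col11a1 from 50.7 to 115 (median 73.2), so each was above both DF libraries there as well. Col9a1 was not, since it fell to 0.272 FPKM in the papilla subtypes, below the higher DF library.

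Lower in DP were Col6a5, at 0.0353 and 0.0470 FPKM against 9.79 and 6.00 in DF (-3.06 ± 0.28, limma, adjusted p = 1.77e-06), and Col18a1, at 2.59 and 1.47 against 18.6 and 14.1 (-2.53 ± 0.42, adjusted p = 0.000642). Both were low in the papilla subtypes too, at no more than 0.745 and 4.28 FPKM. Col8a1 (-2.36 ± 0.60, adjusted p = 0.0176), Col17a1 (-1.87 ± 0.43, adjusted p = 0.00981) and Col7a1 (-1.57 ± 0.46, adjusted p = 0.0406) were also lower. Col17a1 was at 13.2 and 2.76 FPKM in the 2 DF libraries, the first of which also had the higher keratinocyte marker sum (981 against 288). In DP, 7 of 10 keratinocyte, 9 of 9 melanocyte, 6 of 9 smooth muscle and pericyte and 7 of 9 Schwann cell markers were lower than in DF, with 1 Schwann marker higher, and all 8 papilla markers were higher. The part of these cells in the lower calls was not tested.

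Of the 9 calls, 4 (Col6a5, Col18a1, Col15a1 and Col23a1) held with each of the 4 libraries left out. Without DP replicate 1 only 5 genes were called, among them Col6a2, which was not called with all libraries (-1.51 ± 0.46, adjusted p = 0.0514 in limma). Col7a1 was lost without any one of the 4 libraries (adjusted p 0.0575 to 0.253) and Col11a1 without DF replicate 1 or either DP library (up to 0.303). Col17a1 was lost without DF replicate 1 or DP replicate 1 (up to 0.27), and Col8a1 and Col9a1 without DP replicate 1 or DF replicate 2 (up to 0.239 and 0.168).

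Within the papilla, no collagen gene was called between follicle types. In G/AA-DP against ZZ-DP, limma called 0 collagen genes and 1 of all genes (0.00664%). At an unadjusted p under 0.05 there was 1 collagen gene, Col1a1, at 86.7 and 53.7 FPKM in G/AA-DP and 94.1 and 402 in ZZ-DP (-1.50 ± 0.65). ZZ-DP replicate 1 lay next to the higher G/AA-DP library and far below ZZ-DP replicate 2. ZZ-DP replicate 2 also had the higher levels of Col3a1 and Col1a2 (418 and 971 and 238 and 640.5), a fibroblast marker sum of 864 FPKM against 335 in replicate 1 and a melanocyte marker sum of 760 against 34.3, whose part was not tested.

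In G-DP against AA/ZZ-DP, limma again called 0 collagen genes, where 0.505% of all genes were called (0.412% higher and 0.093% lower), and 2 had an unadjusted p under 0.05. These were Col9a2, at 3.04 and 0 FPKM in G-DP and 9.19 and 3.60 in AA/ZZ-DP (-1.77 ± 0.64, adjusted p = 0.403), and Col14a1, at 44.9 and 47.5 and 98.7 and 86.8 (-0.99 ± 0.41, adjusted p = 0.496). Col9a2 was called (1 gene) when G-DP replicate 1 was left out, where the remaining G-DP library was listed at 0. The summed melanocyte markers were 1217 and 1241 FPKM in G-DP and 58.2 and 73.1 in AA/ZZ-DP, and 6 of 9 were called higher in G-DP. The SEs of Col15a1, Col3a1 and Col1a2 were 0.38 to 0.46 in both papilla comparisons, and the differences found in them, of 0.12 to 0.85 on the log2 scale, were not detectable with 2 libraries a group.

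The ORS sort was then set against the epidermis. In ORS against Epi, 10 collagen genes were called (9.83% of all genes tested were), 8 of them higher (5.35% were) and 2 lower (4.48% were). Col14a1, at 51.5 and 55.8 FPKM in ORS and 0.0418 and 0.0967 in Epi, had the largest difference (5.67 ± 0.41, limma, adjusted p = 7.41e-09). Basement membrane chains followed, with 4.04 ± 0.41 for Col4a1 (adjusted p = 7.6e-07) and 3.15 ± 0.43 for Col4a2 (2.48e-05). The fibrillar chains Col27a1 (2.47 ± 0.46), Col5a2 (2.17 ± 0.44), Col5a1 (2.12 ± 0.34) and Col3a1 (1.93 ± 0.44) and the uncertain Col9a3 were also higher.

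The 2 genes lower in ORS were the ones that fasten epidermis to dermis. Col7a1 was at 5.90 and 5.00 FPKM in ORS and 43.6 and 35.7 in Epi (-2.65 ± 0.46, limma, adjusted p = 0.000368), and Col17a1 at 109 and 107 and 627 and 531 (-2.41 ± 0.43, adjusted p = 0.000575). The 2 populations did not overlap in either gene, which is no further evidence for genes picked because they were called. HF-ORS, the sheath sort of the Sox9-GFP line, was not part of this comparison and differed from ORS. It had the highest mean FPKM of all populations in Col17a1 (949, Epi 579) and Col7a1 (46.0, Epi 39.7). Col4a1 was at 10.8 and 10.8 FPKM in HF-ORS against 81.4 and 61.6 in ORS, and Col14a1 was also far lower in HF-ORS. Of 10 keratinocyte markers, 6 were lower in ORS, and 5 of 9 smooth muscle and pericyte markers were higher, with sums of 180.3 and 226 FPKM in ORS and 35.1 and 25.3 in Epi; the 9 endothelial markers summed to 4.95 and 5.30 FPKM in ORS, and the 10 fibroblast markers to 156 and 96.0 in ORS against 60.3 and 37.0 in Epi. The part of these cells in the result was not tested. All calls except Col3a1 (lost without ORS replicate 2, adjusted p = 0.108) and Col9a3 (lost without either Epi library or ORS replicate 1, up to 0.215) held with each library left out.

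Collagen genes called between matrix and root sheath were all lower in the matrix. In Mx against ORS, 13 collagen genes were called (3.83% of all genes tested were), all of them lower (2.64% were), and 0 were higher (1.2% were; in limma, 17 had an unadjusted p under 0.05, all lower). Col12a1 differed by -3.66 ± 0.69 (limma, adjusted p = 0.00291), Col4a1 by -2.97 ± 0.41 (0.000246), Col14a1 by -2.87 ± 0.41 (0.000272), Col16a1 by -2.71 ± 0.49 (0.00212), Col4a2 by -2.64 ± 0.43 (0.000742) and Col8a1 by -2.49 ± 0.60 (0.0175). The others were Col17a1, Col18a1, Col27a1, Col5a2, Col7a1, Col5a1 and Col4a3, by 1.01 to 1.96. The count rested on all 4 libraries: 5 genes were called without ORS replicate 1 or without ORS replicate 2, 8 without Mx replicate 1 and 4 without Mx replicate 2. Col4a1, Col4a2, Col14a1 and Col16a1 were called each time. Of the smooth muscle and pericyte markers, 5 of 9 were also lower in Mx and 1 higher (sums 41.2 and 25.6 FPKM against 180.3 and 226), and their part was not tested.

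Within the matrix, TAC had 8 collagen genes called against Mx (1.27% of all genes tested were), all higher (1.04% were), and 0 lower (0.233% were; in limma, 11 had an unadjusted p under 0.05, 1 of them lower). Col1a1 was at 52.5 and 27.7 FPKM in TAC and 1.51 and 1.99 in Mx (3.84 ± 0.65, limma, adjusted p = 0.00353), Col3a1 at 72.1 and 70.4 and 4.06 and 5.54 (3.65 ± 0.44, 0.000193), and Col1a2 at 49.6 and 37.8 and 4.20 and 4.43 (3.06 ± 0.46, 0.000974). Col6a1 (2.56 ± 0.40), Col6a3 (2.46 ± 0.35), Col23a1 (2.10 ± 0.41), Col6a2 (2.08 ± 0.46) and Col15a1 (1.84 ± 0.38) were the others.

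Dermal markers moved with these genes. Of 8 papilla markers 4 were higher in TAC (sums 58.1 and 68.4 FPKM against 31.5 and 11.5 in Mx), as were 2 of 10 fibroblast markers, Lum at 20.3 and 19.1 FPKM against 0.537 and 0.197 and Pdgfra at 5.64 and 3.52 against 0.133 and 0.712. The fibroblast list as a whole summed to 379.5 and 342 FPKM in TAC and 505 and 424 in Mx. Most of its genes nevertheless had higher values in TAC: 8 of 10 differences were positive and 2 negative, with a median log2 difference of 1.26. In TAC 8 and 7 of these 10 genes reached 1 FPKM, against 3 and 2 in Mx. None of 9 melanocyte markers was called, but their sum was 287 and 199 FPKM in TAC and 40.6 and 51.0 in Mx. Their part in the result was not tested. The gates differ in Lef1-RFP, which also marks the dermal sorts. The number of genes called was 4 without Mx replicate 1 or Mx replicate 2, 3 without TAC replicate 1 and 5 without TAC replicate 2, and Col3a1, Col1a2 and Col6a3 were called each time.

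Precursors of bulge stem cells (HF-SC) had 2 of 6 type IV chains, 2 fibrillar chains and 1 FACIT chain higher than HF-ORS. The ORS sort of the K14-H2BGFP line is also root sheath, was not part of this comparison and was above HF-SC in Col14a1. The 10 keratinocyte markers summed to 23400.3 and 16953 FPKM in HF-ORS, 34863 and 24912 in Epi and 5270 and 5522 in ORS. In HF-SC against HF-ORS, 5 collagen genes were called (4.4% of all genes tested were), all higher (2.66% were), and 0 lower (1.73% were; in limma, 11 had an unadjusted p under 0.05, 3 of them lower). Col4a3 was at 11.1 and 8.11 FPKM in HF-SC and 0.297 and 0.289 in HF-ORS (3.02 ± 0.26, limma, adjusted p = 9.84e-07), and Col4a4 at 8.80 and 3.02 and 0 and 0.319 (2.45 ± 0.34, 0.000145), with HF-ORS replicate 1 listed at 0. The groups did not overlap in these genes, which is no further evidence because the genes were picked as called. Col4a5 and Col4a6 were not called, at 9.70 and 8.33 FPKM in HF-SC and 19.4 and 14.5 in HF-ORS for the first and 8.34 and 4.34 and 14.1 and 10.5 for the second.

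Col14a1 was at 14.1 and 11.1 FPKM in HF-SC and 0.541 and 1.80 in HF-ORS (2.70 ± 0.41, limma, adjusted p = 0.000356), Col27a1 at 10.6 and 6.01 and 1.25 and 0.607 (2.24 ± 0.46, 0.00588) and Col5a1 at 23.9 and 19.7 and 8.68 and 7.52 (1.32 ± 0.34, 0.0305). Col27a1 was lost without HF-SC replicate 1 (adjusted p = 0.0566) and Col5a1 without any one of the 4 libraries (0.0821 to 0.122). These calls rest on the spread shared by all 28 libraries: fitted on the 4 libraries of this line alone, limma called 0 collagen genes and 0 of all genes, the lowest adjusted p of a collagen gene was 0.274, and 12 had an unadjusted p under 0.05. One of 10 fibroblast markers, Fbln1, and 1 of 8 papilla markers, Sostdc1, were higher in HF-SC, where the papilla list summed to 344 and 521 FPKM against 28.7 and 64.7 in HF-ORS. The fibroblast list summed to 111 and 144 FPKM in HF-SC and 117 and 170 in HF-ORS. Of 10 keratinocyte markers 2 were lower in HF-SC (sums 10678 and 8599 FPKM against 23400.3 and 16953), as were 2 of 8 leukocyte markers (39.4 and 24.1 against 27.1 and 43.8), and 1 of 9 Schwann cell markers was higher. The part of these cells was not tested.

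Melanocytes had few collagen transcripts. In Mc against DF, 27 collagen genes were called (18.2% of all genes tested were), 26 of them lower (11.5% were) and 1 higher (6.67% were), the uncertain Col9a3. Col3a1 was at 9.47 and 5.30 FPKM in Mc (-7.43 ± 0.44, limma, adjusted p = 6.04e-10), Col6a2 at 1.69 and 0.340 (-6.89 ± 0.46, 1.78e-09) and Col4a1 at 1.50 and 0.746 (-4.97 ± 0.41, 3.4e-08). The gene with the most FPKM in Mc was Col12a1, at 21.9 and 11.5. The call of Col9a3 was lost without any one of the 4 libraries (adjusted p 0.0807 to 0.156), and 20 of the 27 calls held throughout. In Mc, 9 of 9 smooth muscle and pericyte markers (sums 15.0 and 6.84 FPKM against 686 and 664 in DF), 7 of 10 fibroblast (27.8 and 14.1 against 827 and 1837), 7 of 8 papilla and 6 of 10 keratinocyte markers were also lower, and 8 of 9 melanocyte markers were higher. The part of these cells was not tested.

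The negative mixture had less of the fibrillar chains than DF, while no type IV chain was called. In Neg against DF, 16 collagen genes were called (8.61% of all genes tested were), 15 of them lower (5.22% were) and 1 higher (3.39% were), Col17a1 (2.44 ± 0.43, limma, adjusted p = 0.000824). The largest differences were in Col23a1, at 0.887 and 1.14 FPKM in Neg (-4.15 ± 0.41, 1.03e-06), and Col3a1, at 82.2 and 102 (-3.92 ± 0.44, 6.76e-06). Of the 6 type IV genes, Col4a1 differed by 0.03 ± 0.41 (adjusted p = 0.997) with 66.7 and 64.8 FPKM in Neg and 67.3 and 62.0 in DF. All 9 endothelial markers (sums 179 and 271 FPKM in Neg and 5.92 and 4.34 in DF), 6 of 10 keratinocyte, 6 of 8 leukocyte and 3 of 3 erythroid markers were higher in Neg. Their part was not tested, and 12 of the 16 calls held with each library left out.

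Chains that assemble together did not keep 1 ratio of FPKM. Col1a1 to Col1a2, which join at a fixed ratio in type I collagen, ranged from 0.194 to 1.28 with a median of 0.612 over the 26 libraries in which both reached 1 FPKM, with 0.661 to 0.984 in DF and 0.194 to 0.345 in G-DP. Col4a1 to Col4a2 kept a narrower range, from 0.488 to 1.28 over 27 such libraries, and was 1.23 to 1.28 in ORS and 0.584 to 0.629 in Epi. For type VI, Col6a3 to Col6a2 was 0.715 to 1.12 in DF, 1.46 to 2.74 in DP and 4.02 to 11.0 in the papilla subtypes. DF and the subtypes did not overlap in that ratio, while Col6a1 to Col6a2 stayed between 0.540 and 1.07 over DF and all papilla sorts. The subtypes, G-DP among them, came from other mouse lines than DF and DP, and line and sort cannot be told apart in these ratios. The ratios depend on the transcript models behind FPKM and describe RNA only.

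The genes that make collagen into fibrils were followed in a list of 36 tested genes for modification, folding, export, processing and crosslinking. In DF and DP against the keratinocyte sorts, 23 of 36 were higher and 0 lower (26% of all genes tested were called either way). All 5 crosslinking genes were higher, with Lox, lysyl oxidase, at 4.44 ± 0.57 (limma, adjusted p = 2.87e-06). Lox was at 28.6 and 81.0 FPKM in DF and 29.0 and 11.0 in DP, so its libraries differed widely, and it was listed at 0 in Epi.

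Of 9 folding and export genes 7 were higher, among them Fkbp10 (4.40 ± 0.32), which codes for a chaperone of procollagen. Of 15 modification genes 8 were higher, led by the lysyl hydroxylase gene Plod2 (4.98 ± 0.27), which was at 100.1 and 98.5 FPKM in DF, 212 and 157 in DP and 0.746 and 0.220 in Epi. Of 7 propeptide processing genes 3 were higher, led by Pcolce (5.28 ± 0.27), whose product enhances procollagen cleavage, and Adamts2 (4.01 ± 0.38), a procollagen peptidase gene. Pcolce was at 93.9 and 77.4 FPKM in DF, 294 and 269.7 in DP and 3.24 and 2.62 in Epi.

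Most receptors for collagen also differed between DF and DP and the keratinocyte sorts. Of 8 tested, 5 were higher in DF and DP (14.5% of all genes tested were) and 1 lower (11.5% were). Ddr2, a receptor kinase for fibrillar collagen, was at 24.3 and 49.1 FPKM in DF and 65.5 and 63.9 in DP and listed at 0 in Epi (4.82 ± 0.27, limma, adjusted p = 2.52e-11). The lower one, named after its value was seen, was Itga2, an integrin subunit for collagen (-1.69 ± 0.28, 6e-05). Itga2 was at 4.80 and 8.54 FPKM in DF, which overlapped Mx (5.37 and 7.10), and at 0.368 and 0.355 in DP. Its relative Itga1 was at 22.9 and 31.8 FPKM in ORS against 0.538 and 0.0261 in Epi (4.48 ± 0.38, 7.69e-08) and at 6.86 and 12.9 in HF-SC against 0.793 and 0.961 in HF-ORS (2.48 ± 0.38, 0.00043). In Itga1, ORS overlapped DF (14.8 and 24.2 FPKM) and DP (25.5 and 28.2).

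Of the other comparisons, those with DF as the reference for Mc and Neg had the most calls in this list. In DP against DF, P4ha3 (1.84 ± 0.52) and Pcolce (1.71 ± 0.45) were higher and Pcolce2 (-1.80 ± 0.52), Adamts14 (-1.55 ± 0.45) and Itga2 (-2.45 ± 0.46) lower. Apart from Itga2, a receptor, these were 2 of the 36 higher (2.44% of all genes tested were) and 2 lower (4.25% were). In ORS against Epi, Adamts14, a procollagen peptidase gene, was at 0.408 and 0.268 FPKM in ORS and 48.0 and 45.8 in Epi (-5.16 ± 0.45, limma, adjusted p = 9.99e-08), and it was also lower in HF-SC than in HF-ORS, at 9.46 and 6.74 and 48.7 and 37.8 (-2.29 ± 0.45, 0.00421). The prolyl 3-hydroxylase gene Leprel1 was at 5.45 and 7.33 FPKM in ORS and 92.4 and 71.4 in Epi (-3.49 ± 0.63, 0.00062). Of the 36 genes, 2 were higher in ORS than in Epi (5.35% of all genes tested were) and 4 lower (4.48% were). For HF-SC against HF-ORS, 1 was higher (2.66% were) and 1 lower (1.73% were). In Mc against DF, 19 of the 36 were lower (11.5% of all genes tested were) and 2 higher (6.67%), and in Neg against DF 18 were lower (5.22%) and 0 higher (3.39%). In TAC against Mx, Plod1 was higher (1.59 ± 0.35) and Crtap lower (-1.24 ± 0.29), and the other 34 were not called. Of all genes tested, 1.04% were higher in TAC and 0.233% lower.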

How the data were processed

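RNA sequencing of 28 libraries from 14 sorted populations was used as 1 deposited table of FPKM, computed by the authors from reads. TopHat2 2.0.3, Bowtie2, Cufflinks 2.1.1 and mm10 are named, per the submitters' processing notes, without their settings. Of 23235 rows, 220 were exact copies of another row and were dropped, which left 23015. Depth is unknown, so precision rests on 2 libraries per population. Values were taken as log2(FPKM + 1), which understates changes of low genes, and fitted with limma 3.58.1 in R 4.3.3 for genes at 1 FPKM or more in at least 2 libraries, with 1 mean per population over all 28 libraries. The 10 comparisons were adjusted separately by the Benjamini-Hochberg method, and the fit was tested on simulated data. Named genes were the 3 members of each class with the highest mean FPKM, the 6 called with the largest change in each direction per comparison, partner chains, and up to 6 called pathway genes per comparison. The members and lists were chosen with earlier results of these data known. Alternatives were other pseudocounts and filters, quantile normalization, 1 mouse line only, a replicate block and each library left out. Promoter windows are from RefSeq (GRCm38.p6), and values of Col9a3, Col10a1 and Col27a1 are uncertain because their deposited loci hold another gene.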

Additional observations from a re-analysis of the deposited data

How the results depend on the processing

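Of 70 counts of called collagen genes under settings other than leaving out a library, 68 were within 1.5 times the reported count. Mx against ORS gave 8 genes under quantile normalization in place of 13, and HF-SC against HF-ORS gave 0 on the libraries of its line alone in place of 5. With each library left out, counts ran from 25 to 27 for DF and DP against keratinocytes, 5 to 7 for DP against DF, 22 to 25 for Mc against DF, 12 to 19 for Neg against DF, 9 in every case for ORS against Epi, 4 to 8 for Mx against ORS, 3 to 5 for TAC against Mx, 4 to 5 for HF-SC against HF-ORS, 0 in every case for G/AA-DP against ZZ-DP and 0 to 1 for G-DP against AA/ZZ-DP. Each such fit leaves 1 population with a single library, which is assumed to vary like the others. Of 114 calls of single genes, 46 were lost in at least 1 setting and 0 reversed. The replicate numbers were not taken to pair libraries, since the sources do not say that same-numbered libraries belong together. Same-numbered deviations correlated above 0.1 in 27 of 28 pairs of populations of the K14-H2BGFP line. The Sox2-GFP pair had 0.285, the Crabp1-GFP pair 0.283 and the Sox9-GFP pair 0.071. Between lines, 34 of 60 pairs were also above 0.1, up to 0.291. With a replicate block, the counts were 26, 13, 30, 21, 13, 16, 8, 7, 0 and 0 in the order DF and DP against keratinocytes, DP, Mc and Neg against DF, ORS against Epi, Mx against ORS, TAC against Mx, HF-SC against HF-ORS, G/AA-DP against ZZ-DP and G-DP against AA/ZZ-DP, and no call of a single gene was lost. No counting error can be given from FPKM.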
